A study of Mus musculus with 11 samples.

Results

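The H3K27me3 profiles of quiescent satellite cells (QSCs) and activated satellite cells (ASCs) from young mice were compared through the regions in which the mark was called enriched (peaks). All H3K27me3 peaks of both cell states were taken, 11658 in QSCs and 38307 in ASCs, which together are 49965 of the 212879 peaks in the 8 peak lists of the series. A peak of one cell state was matched to the other when the peaks shared at least 1 bp, and an ASC peak that shared no base with a QSC peak is called new here. Satellite cells are the stem cells of skeletal muscle, which rest between the fiber and its basal lamina until injury or culture makes them divide. Both groups were male C57BL/6 mice of 2 to 3 months, for which the labels give no transgene or drug, and cells were sorted from hindlimb muscle as VCAM+, CD31-, CD45- and Sca1-. QSCs of male C57BL/6 mice of 22 to 24 months, sorted in the same way and called old here, serve for comparison. Per the sample descriptions, QSCs came from healthy mice and ASCs were sorted QSCs plated for 3 days on extracellular matrix in medium with horse serum, whereas the paper describes sorting from injured muscle and crosslinking of cells straight after the sort. Which of these gave the ASC library was not settled here. Cells were stored frozen after crosslinking until enough had been collected. ChIP-seq, which sequences the DNA that an antibody against a histone mark pulls down, was done with 5 μg of the same anti-H3K27me3 antibody and 15 PCR cycles, in 1 library for each cell state.

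H3K27me3 is placed by Polycomb repressive complex 2, whose catalytic subunit is Ezh2 or Ezh1, and is removed by the demethylases Kdm6a (Utx) and Kdm6b (Jmjd3). The complex is first recruited to nucleation sites, often CpG islands of silent developmental genes, and its subunit Eed binds the mark already in place and so promotes methylation of neighboring nucleosomes. A gain of the mark can thus appear as wider peaks at existing sites, as further peaks next to existing sites, or as peaks at places that had none. In dividing cells the mark must also be restored after each round of DNA replication. These are properties of the mark in general and were not measured here.

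With 1 library per cell state no test between QSCs and ASCs was possible, and activation, culture, read depth and the efficiency of each pull-down cannot be told apart. Each peak comes with its position and a score from the peak caller MACS, which is -10 times the log10 of the p-value and runs from 50 to 3233.1 in QSCs and to 3228.3 in ASCs. The scale saturates at 3100, a value that 1110 ASC and 77 QSC peaks share and only 56 and 11 exceed, so peaks at this score are tied. The numbers of reads are unknown, so equal scores in different lists need not mean equal signal. In places a score limit of 100 is applied to several lists, or a QSC and an ASC score are given side by side. No difference in signal is read from these. The range after a share is its 95% interval by Wilson's method and reflects counting error alone. Genes are not named, because no annotation in the coordinates of the lists (mm9) was used, and the identity of the sorted cells was not checked against marker genes for the same reason. Among the other lists, H3K4me3 had 24701 peaks in QSCs and 32846 in ASCs and H3K36me3 had 20399 and 42880, so every mark had the longer list in ASCs. One block of 87.9 kb on chromosome 8, chr8:126060929-126148832 by its QSC peak, was a single peak in the H3K27me3 lists of both QSCs and ASCs and the widest of each. It was also covered by H3K4me3 peaks in QSCs (99.8% of its length, as a single peak) and in ASCs (98.6%) and by H3K36me3 peaks in QSCs (84.0%), but only 1.31% by H3K36me3 in ASCs and not at all by H3K4me3 of old QSCs. Results on the covered length are therefore also given without it.

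Most H3K27me3 peaks of ASCs were new. Of the 38307 ASC peaks, 29668, or 77.4% (77.0% to 77.9%), overlapped no QSC peak, and 8639 did. The share without a counterpart in QSCs was 41.3% for H3K4me3 and 73.7% for H3K36me3 in the same cells, and 73.9% for H3K27me3 peaks of QSCs from old mice set against those of young mice. A large share of unmatched peaks was thus found for H3K36me3 on activation and for H3K27me3 between ages as well. In the other direction 2992 QSC peaks, or 25.7% (24.9% to 26.5%), had no ASC peak, where the same share was 21.4% for H3K4me3 and 40.8% for H3K36me3. For QSC peaks scoring 100 or more against all ASC peaks, this share was 11.4% (10.7% to 12.3%). For all 11658 QSC peaks against equally many top-scoring ASC peaks, it was 43.6% (42.7% to 44.5%). Among ASC peaks scoring 100 or more, 62.8% (62.1% to 63.5%) were new against all QSC peaks, and of the 11658 top-scoring ASC peaks, as many as the QSC list holds, 50.4% (49.5% to 51.3%) were new.

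New peaks were weaker and narrower than shared ones. Their median score was 85.0 in the ASC list, against 304 for the ASC peaks that overlapped a QSC peak, and 39.3% of them had a score of at least 100, against 80.0%. The share of ASC peaks that were present in QSCs rose with the score, from 6.63% (5.88% to 7.46%) in the lowest 10% of the list, with a median score of 52.2, to 82.9% (81.6% to 84.0%) in the highest 10%, with a median score of 1735.8. A small group of strong new peaks existed nevertheless. There were 262 new peaks with a score of at least 1000, with a median width of 2771.5 bp, while 90.7% of all ASC peaks with such a score were shared.

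The median width of new peaks was 799 bp, with 645 bp and 1069 bp as the quartiles, whereas shared ASC peaks had a median width of 1586 bp, with 964 bp and 2882.5 bp as the quartiles. Peaks under 1 kb made up 70.6% of the new and 27.1% of the shared ASC peaks. Wide ASC peaks nearly all overlapped a QSC peak, which a wide peak does more easily than a narrow one. Of the 848 ASC peaks over 5 kb, 32 were new, and of the 154 ASC peaks over 10 kb, 99.4% (96.4% to 99.9%) overlapped a QSC peak.

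**Figure D1:**
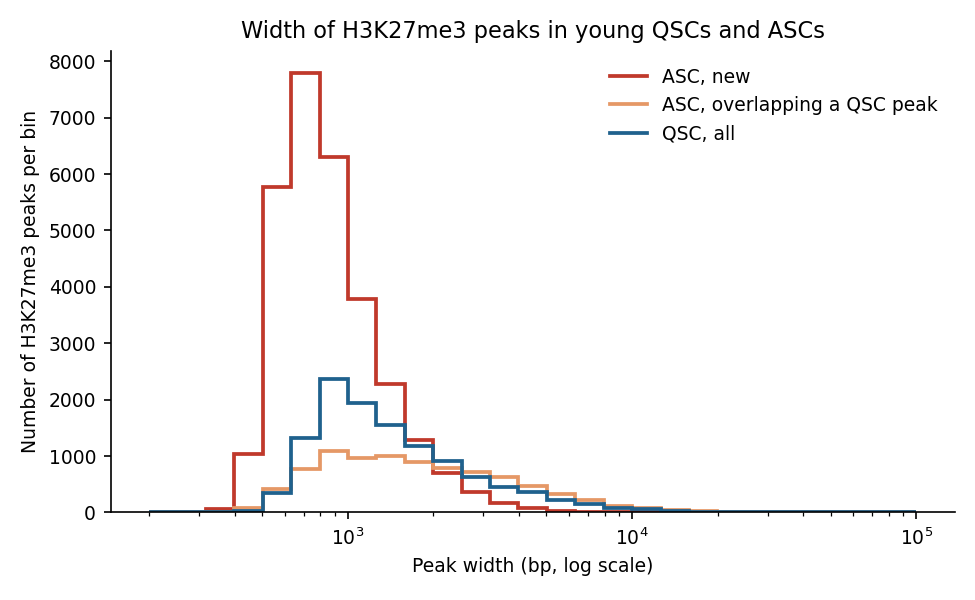
Histogram of the width of H3K27me3 peaks in bp on a log axis, with the number of peaks per bin for all 11658 QSC peaks, the 8639 ASC peaks that overlapped a QSC peak and the 29668 new ASC peaks. The new peaks form a narrow group around their median of 799 bp, while the shared ASC peaks spread to widths above 10 kb.

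Counted in bases, the gain lay mainly at places apart from the QSC peaks. ASC peaks covered 33.0 Mb that QSC peaks did not cover, besides 15.9 Mb covered in both cell states. Of the gained length, 4.66 Mb (14.1%) lay in ASC peaks that overlapped a QSC peak, 6.47 Mb (19.6%) in new peaks within 5 kb of a QSC peak and 21.8 Mb (66.2%) in new peaks farther away. QSC peaks covered 5.47 Mb that ASC peaks did not. Of this length, 3.25 Mb lay in QSC peaks without an ASC peak and 2.22 Mb in QSC peaks that overlapped one, so the net gain at overlapping sites was 2.44 Mb. The share of the gain at overlapping sites rose to 25.5% when peaks less than 1 kb apart were joined and to 30.4% with as many top-scoring ASC peaks as QSC peaks, and it was still 14.1% without the block on chromosome 8.

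**Figure D2:**
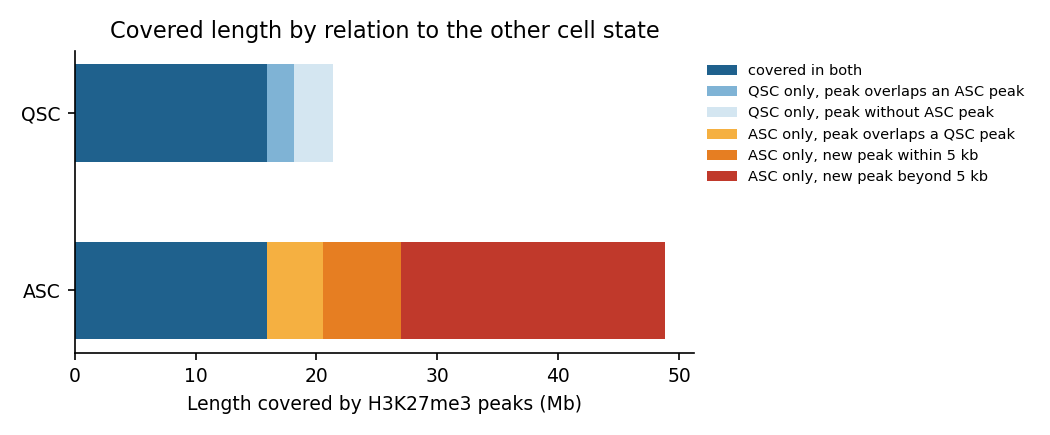
Length covered by H3K27me3 peaks in Mb, with 1 bar for each cell state divided by the relation of the bases to the peaks of the other state. The 15.9 Mb covered in both states fill most of the QSC bar, and the 21.8 Mb in new peaks more than 5 kb from any QSC peak are the largest part of the ASC bar.

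Pre-existing sites called once in each list changed little in median width, and sites where peaks joined or split are not among them. The median log2 ratio of width was larger, 0.36, when peaks less than 1 kb apart were joined. It was 0.29 with as many top-scoring ASC peaks as QSC peaks. At the 5322 sites called once in each list, QSC peaks had a median width of 1260.5 bp and ASC peaks one of 1490 bp, the median of the site by site ratio was 1.09 (0.13 on the log2 scale), and 60.5% (59.1% to 61.8%) of the sites were wider in ASCs. The ASC peak extended past the QSC peak at both ends at 1821 sites and stopped short of it at both ends at 1101 sites. The median extension was 43 bp on the left and 37 bp on the right. Sites at which the ASC peak was wider by at least 2-fold numbered 693 (13.0% of the 5322), and sites at which it was narrower by at least 2-fold numbered 286 (5.37%).

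The direction of the change depended on the list by which sites were sorted. Sites that were under 1 kb wide in QSCs were wider in ASCs in 70.9% (68.6% to 73.0%) of cases, with a median ratio of 1.24, and sites over 5 kb wide in QSCs in 57.1% (48.4% to 65.4%), with a median ratio of 1.01. Sorted by the ASC width instead, only 22.1% of the sites under 1 kb were wider in ASCs, and the median log2 ratio was -0.32. A ratio for sites sorted by width in one list therefore depends on that list.

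Joining and splitting of peaks were about equally frequent. There were 1231 ASC peaks that overlapped 2 or more QSC peaks and contained or touched 2778 of them, and 1240 QSC peaks that overlapped 2 or more ASC peaks. The joining ASC peaks had a median width of 4180 bp and the split QSC peaks one of 2680.5 bp. At most 6 QSC peaks met 1 ASC peak, and at most 7 ASC peaks met 1 QSC peak.

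The sites that gained most width, by the rule of the 5 largest gains in bp among sites called once in each list, had mostly been narrow, weak peaks in QSCs. At chr1:95081163-95091717 the ASC peak was 10555 bp wide with a score of 3100, and the QSC peak inside it was 940 bp wide with a score of 67.6. The new ASC peak next to it, chr1:95071141-95080425, was 9285 bp wide with H3K4me3 peaks over 13.2% of it in QSCs and 9.21% in ASCs, and lay 1.68 kb from that QSC peak, so that 2 ASC peaks of over 9 kb stood where QSCs had a single peak of under 1 kb. At chr4:136444556-136453997 the ASC width was 9442 bp against 1225 bp in QSCs, and at chr5:112910338-112917626 it was 7289 bp against 752 bp. None of these 3 widened sites carried H3K4me3 or H3K36me3 peaks in QSCs or ASCs. The site chr4:136505360-136517597 grew from 5433 bp to 12238 bp. The remaining one, chr12:114013815-114023178, differed from the others in that H3K36me3 peaks covered 95.4% of it in QSCs and 100% in ASCs, and H3K4me3 peaks 38.1% and 95.9%.

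New peaks lay closer to the H3K27me3 peaks of QSCs than the peaks of other lists did. Their median distance to the nearest QSC peak was 33.5 kb, with 6.66 kb and 148 kb as the quartiles. Within 500 bp lay 1341 new peaks (4.52%), within 1 kb 2363 (7.96%), within 5 kb 6407 (21.6%, 21.1% to 22.1%), within 100 kb 20387 (68.7%), and 1446 (4.87%) lay more than 1 Mb away. Measured in the same way, 5.06% (4.82% to 5.32%) of the ASC H3K4me3 peaks that overlapped no QSC H3K27me3 lay within 5 kb of it, as did 1.1% (1.0% to 1.2%) of the ASC H3K36me3 peaks and 8.17% (7.72% to 8.66%) of the H3K27me3 peaks of old QSCs. The median distances of these lists were 127 kb, 124 kb and 216 kb. The QSC peaks themselves lay a median of 1.2 kb from the next QSC peak. The spacing of new peaks among themselves was not measured. The share of new peaks within 5 kb was 12.5% when peaks less than 1 kb apart were joined.

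**Figure D3:**
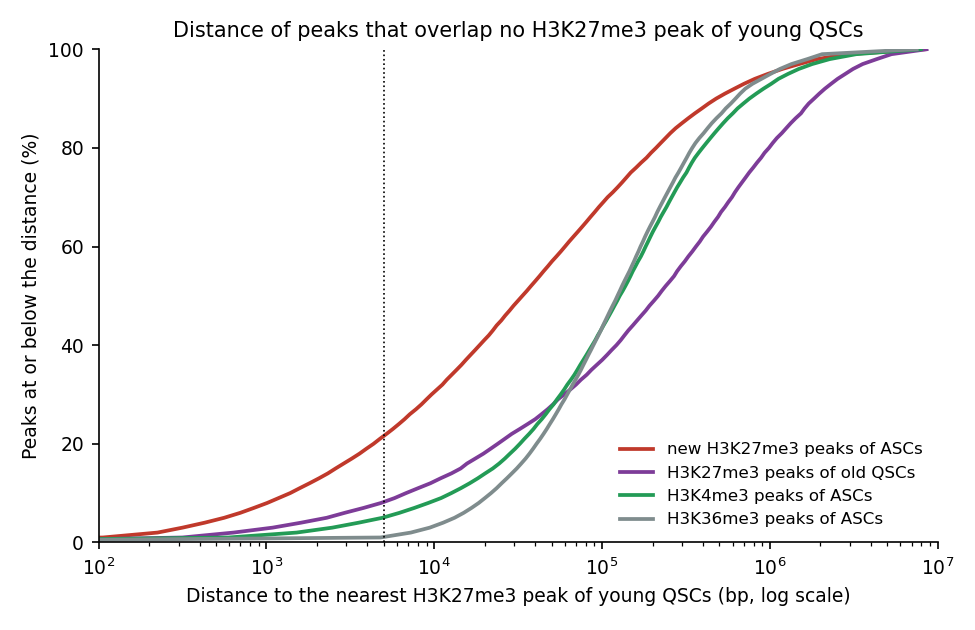
Cumulative percentage of peaks by distance in bp (log axis) to the nearest H3K27me3 peak of young QSCs, for peaks of 4 lists that overlap none of them, with a dotted line at 5 kb. At 5 kb the curve of new ASC H3K27me3 peaks stands at 21.6%, above old QSC H3K27me3 at 8.17%, ASC H3K4me3 at 5.06% and ASC H3K36me3 at 1.1%.

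Peaks near a QSC peak were only slightly stronger and wider than remote ones. The median width fell from 851 bp within 1 kb to 793 bp at 20 to 100 kb and 742 bp beyond 1 Mb, and the median score from 96.7 to 82.4 and 82.9. Of the 6407 new peaks within 5 kb, 1132 (17.7%, 16.8% to 18.6%) had a QSC peak within that distance on both sides, and the others were flanked on 1 side.

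Seen from the QSC peaks, 5759 of 11658 (49.4%, 48.5% to 50.3%) had at least 1 new ASC peak within 5 kb. The share was 54.9% (53.9% to 55.9%) for QSC peaks that were also called in ASCs and 33.5% (31.8% to 35.2%) for those that were not. It did not rise with the width of the QSC peak, being 48.0% (46.5% to 49.6%) under 1 kb, 50.9% (49.5% to 52.3%) at 1 to 2 kb and 32.5% (24.7% to 41.4%) over 10 kb. Wide QSC peaks were instead kept almost whole. ASC peaks covered 93.8% of the length of QSC peaks over 10 kb, 81.3% at 2 to 5 kb and 50.6% under 1 kb, and 99.1% (95.3% to 99.8%), 92.8% (91.7% to 93.8%) and 56% (54.5% to 57.6%) of these peaks had a counterpart.

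The widest peaks, named by rule, illustrate this persistence. Besides the block on chromosome 8, the widest QSC peaks were chr2:105501836-105528537 with 26702 bp, chr15:102746138-102771344 with 25207 bp, chr1:172993522-173016639 with 23118 bp and chr2:71362750-71385795 with 23046 bp. ASC peaks covered 97.4%, 89.5%, 98.9% and 87.2% of them, divided over 6, 7, 3 and 6 peaks. H3K27me3 peaks of old QSCs covered 31.3%, 46.4%, 86.9% and 61.9% of the same regions. The region on chromosome 1 had the saturated score of 3100 in QSCs and carried other marks over much of its length. H3K4me3 peaks covered 72.4% of it in QSCs and 61.4% in ASCs, and H3K36me3 peaks 59.1% in QSCs and none of it in ASCs. The widest ASC peaks joined several QSC peaks each. The peak chr5:35717455-35751153, of 33699 bp, held 4 QSC peaks over 92.0% of its length, chr14:122861933-122891534, of 29602 bp, held 5 over 97.8%, chr14:63862867-63892228, of 29362 bp, held 6 over 97.7%, and chr8:59803671-59830107, of 26437 bp, held 6 over 90.5%.

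Domains were formed by joining peaks of a list with gaps under 5 kb. There were 5924 domains in QSCs and 18206 in ASCs, and 64.9% and 64.7% of them consisted of a single peak. Of the ASC domains, 14089 (77.4%) held no QSC peak, and these were small, with a median span of 845 bp, 74.7% single peaks and 5 spans over 50 kb. The 4117 ASC domains with a QSC peak had a median span of 5444 bp, and 95 of them spanned over 50 kb, compared with 31 domains of that size in QSCs. Thus 95 of the 100 ASC domains over 50 kb held at least 1 QSC peak, which a long span meets more easily than a short one. QSC peaks covered between 1.0% and 99.9% of the length of these 95 domains, with a median of 37.8%, and ASC peaks a median of 67.6%. The share of domains without a QSC peak was 79.3% with gaps under 1 kb and 75.6% with gaps under 10 kb.

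The domains with the most peaks were chosen after their values were seen. In ASCs the domain at chr2:165949377-166205304 spanned 256 kb with 98 ASC and 60 QSC peaks, that at chr6:99887860-100129430 spanned 242 kb with 95 and 61, and that at chr11:96384865-96570439 spanned 186 kb with 81 and 37. Old QSCs had 19, 5 and 3 H3K27me3 peaks in these spans. With gaps under 5 kb the longest domain of all was nevertheless one of QSCs, chr2:165949433-166320188, which spanned 371 kb with 86 QSC peaks. It began at nearly the same place as the longest ASC domain, and 131 ASC peaks overlapped its span. The largest span was thus not larger in ASCs with this gap. With gaps under 1 kb the largest span was 132 kb in ASCs and 87.9 kb in QSCs, and with gaps under 10 kb 372 kb and 371 kb. Among domains without any QSC peak, those ranked highest by number of peaks held 22 ASC peaks each. They were chr6:89109943-89166965, chr5:33836838-33888724 and chr2:152352013-152401137, with spans of 57.0 kb, 51.9 kb and 49.1 kb, and held 1, 4 and 2 peaks in old QSCs.

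The gain was spread over all autosomes. The number of H3K27me3 peaks in ASCs relative to QSCs ranged from 2.6-fold on chromosome 16 to 3.8-fold on chromosome 14, with a median of 3.26-fold over the 19 autosomes, and the share of new peaks from 72.9% on chromosome 19 to 82.8% on chromosome 14. No autosome had fewer peaks in ASCs. Peak density differed more between chromosomes than the ratio did. It ran in QSCs from 2.4 peaks per Mb on chromosome 3 to 7.63 on chromosome 11 and in ASCs from 7.82 to 25.7 on the same chromosomes, with the largest position in any list taken as the length. The median distance of a new peak to a QSC peak was shortest on chromosome 19 (20.1 kb) and longest on chromosome 3 (105 kb) among the autosomes, and on the densest, chromosome 11, it was 26.6 kb.

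The X chromosome stood outside the autosomal range in several measures. Male cells carry a single, active X chromosome, and it held few H3K27me3 peaks in either state, 95 in QSCs (0.57 per Mb) and 482 in ASCs (2.89 per Mb). The ratio was 5.07-fold in number and 3.7-fold in covered length, where no autosome exceeded 2.65-fold. The other marks did not rise on X, with 685 H3K4me3 peaks in QSCs and 702 in ASCs (1.02-fold, autosomes 1.22 to 1.44) and 173 and 134 H3K36me3 peaks (0.775-fold, autosomes 1.71 to 2.8). Of all H3K27me3 peaks, 0.815% (0.667% to 0.995%) lay on X in QSCs and 1.26% (1.15% to 1.37%) in ASCs. Among as many top-scoring ASC peaks as QSC peaks, the X share was 0.935% (0.776% to 1.13%), which overlaps the interval of QSCs, and with scores of at least 100 it was 1.16% (1.01% to 1.32%) against 0.887% (0.679% to 1.16%). The excess on X was thus smaller among strong peaks. Old QSCs had 688 H3K27me3 peaks on X, or 3.9% (3.63% to 4.2%) of their list. New X peaks were far from QSC peaks, with a median distance of 1208.5 kb. Of the 421, 55.1% (50.3% to 59.8%) overlapped an H3K27me3 peak of old QSCs, against 17.8% (17.3% to 18.2%) of the 29241 new autosomal peaks. This overlap was higher far from QSC peaks on the autosomes too, and at like distance X and autosomes differed less. Beyond 1 Mb it was 75.6% (69.5% to 80.7%) on X and 62.6% (59.9% to 65.3%) on autosomes. Up to 1 Mb it was 31.6% (25.5% to 38.4%) and 15.8% (15.4% to 16.3%). The Y chromosome held 1 peak in QSCs and 6 in ASCs.

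**Figure D4:**
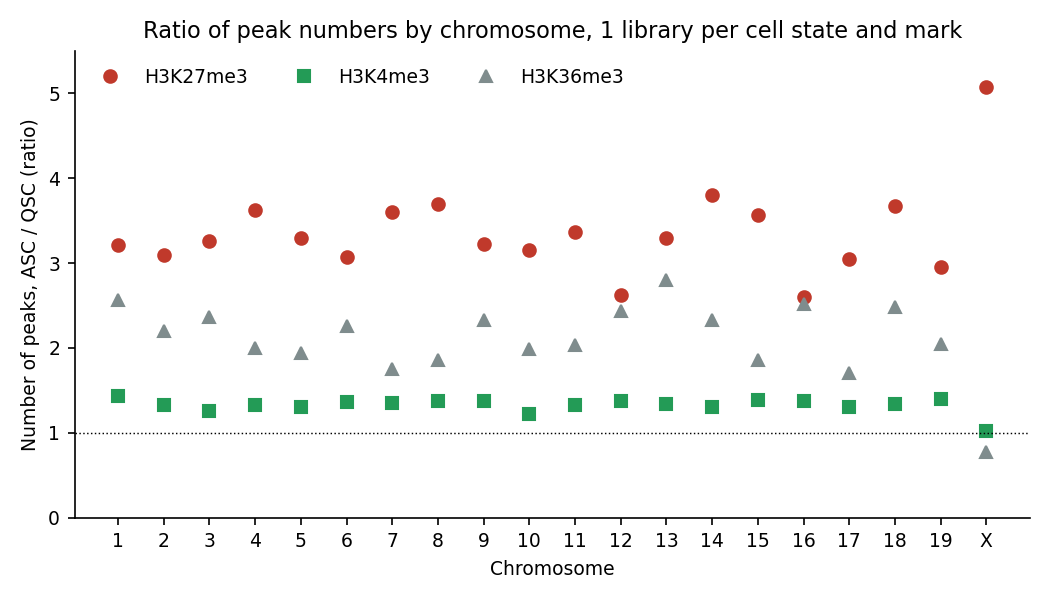
Ratio of the number of peaks in ASCs to that in QSCs for each autosome and the X chromosome, with 1 point per mark and no error, since each point compares single libraries. H3K27me3 lies between 2.6 and 3.8 on the autosomes and at 5.07 on X, where H3K4me3 (1.02) and H3K36me3 (0.775) lie below their autosomal ranges.

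Most new peaks lay where neither H3K4me3, a mark of promoters, nor H3K36me3, a mark of transcribed gene bodies, had been called in QSCs. This was the case for 25382 of the 29668 new peaks, a share of 85.6% (85.1% to 85.9%), and 98.5% of these had neither mark in ASCs as well. Another 2533 lay on H3K4me3 alone, 996 on H3K36me3 alone and 757 on both. The share with neither mark was counted for new peaks only. Of all ASC peaks, 16.3% (16.0% to 16.7%) overlapped H3K4me3 of QSCs, against 11.1% of new peaks. For H3K36me3 of QSCs these shares were 5.87% (5.64% to 6.11%) and 5.91%. Most ASC peaks, new or not, thus lay off each of these marks.

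H3K4me3 of QSCs was found under 11.1% (10.7% to 11.5%) of the new and 34.4% (33.4% to 35.4%) of the shared ASC peaks. Since wide peaks meet other peaks more easily, the comparison was repeated among peaks of 1 to 2 kb, where the shares were 15.7% (14.9% to 16.6%) and 24.6% (23.1% to 26.2%). Among peaks of up to 1 kb they were 8.88% (8.5% to 9.27%) and 11% (9.79% to 12.3%). New peaks next to QSC peaks were rarely on H3K4me3. The share was 5.81% (5.26% to 6.41%) within 5 kb of a QSC peak and 12.5% (12.1% to 13.0%) beyond it, and at widths of 1 to 2 kb these shares were 7.33% (6.23% to 8.6%) and 18.6% (17.6% to 19.6%). The strongest new peaks were mostly at H3K4me3 sites, with 68.7% of the 262 new peaks of a score of at least 1000 on H3K4me3 of QSCs and 65.6% on H3K4me3 of ASCs, against 6.3% and 3.79% of the new peaks with scores under 100, which were narrower with a median of 688 bp. Among peaks of 2 to 5 kb with a score of at least 1000, 70.1% (62.9% to 76.4%) of the 174 new and 80.6% (78.5% to 82.5%) of the 1469 shared ASC peaks lay on H3K4me3 of QSCs, so this too was not particular to new peaks. Only 7 new peaks with scores under 100 were that wide, too few for a comparison at equal width.

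Under new H3K27me3 the other marks of QSCs were called less often in ASCs than at sites without H3K27me3 in ASCs. Sites under shared H3K27me3 were not counted in this comparison. Of the 1706 QSC H3K36me3 peaks that overlapped a new H3K27me3 peak, 28.5% (26.5% to 30.7%) were H3K36me3 peaks in ASCs, against 63.3% (62.6% to 64.0%) of those without H3K27me3 in ASCs. With H3K36me3 scores of at least 100 in QSCs, the shares were 55.5% (51.8% to 59.1%) and 78.7% (77.7% to 79.6%). For H3K4me3, 63.2% (61.5% to 64.8%) of the 3192 QSC peaks under new H3K27me3 were called in ASCs, against 79.3% (78.7% to 79.9%) without H3K27me3, and 83.7% (82.1% to 85.2%) against 92.5% (92.0% to 92.9%) with scores of at least 100. The score is that of the H3K36me3 or H3K4me3 peak. New H3K27me3 peaks overlapped H3K36me3 of QSCs more often (5.91%, 5.65% to 6.18%) than that of ASCs (2.31%, 2.14% to 2.48%), although the ASC list of H3K36me3 is the larger one. This was not particular to new peaks, since the shares were 5.75% (5.28% to 6.26%) and 1.52% (1.28% to 1.8%) for the ASC peaks shared with QSCs.

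What the new peaks overlapped changed with their distance from QSC H3K27me3. H3K27me3 of old QSCs was found at 8.51% of the new peaks within 1 kb, at 13.3% of those at 20 to 100 kb, at 27.3% at 100 kb to 1 Mb and at 64.8% (62.3% to 67.2%) of the 1446 beyond 1 Mb. H3K4me3 of young QSCs was found at 6.94%, 9.58%, 17.7% and 28.1% (25.8% to 30.4%), and H3K36me3 of young QSCs at 0.973%, 4.94%, 10.2% and 20.5% (18.5% to 22.7%). H3K4me3 of ASCs was found at 16.2% (14.4% to 18.2%) and H3K4me3 of old QSCs at 49.7% (47.2% to 52.3%) of the peaks beyond 1 Mb, but H3K36me3 of ASCs at only 1.18% (0.735% to 1.87%). The 1215 remote peaks on autosomes alone gave 62.6% (59.9% to 65.3%) for H3K27me3 of old QSCs, so the share was nearly as high without the X chromosome. With scores of at least 100 in both lists, 45.7% (41.5% to 49.9%) of the 534 peaks beyond 1 Mb and 11.1% (10.5% to 11.7%) of the others overlapped H3K27me3 of old QSCs, and 7.49% (5.55% to 10.0%) and 2.85% (2.56% to 3.18%) overlapped H3K36me3 of young QSCs. Of the 6 other lists, 2 or more had a peak at 57.8% (55.3% to 60.3%) of the new peaks beyond 1 Mb and at 14.5% (14.1% to 15.0%) of the others, and no other list had one at 21.4% (19.4% to 23.6%) and 75.8% (75.3% to 76.3%). Remote new peaks were weak, with a median score of 82.9, but so were new peaks as a whole, with 85.0. The part of shared background in the remote peaks was not tested.

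**Figure D5:**
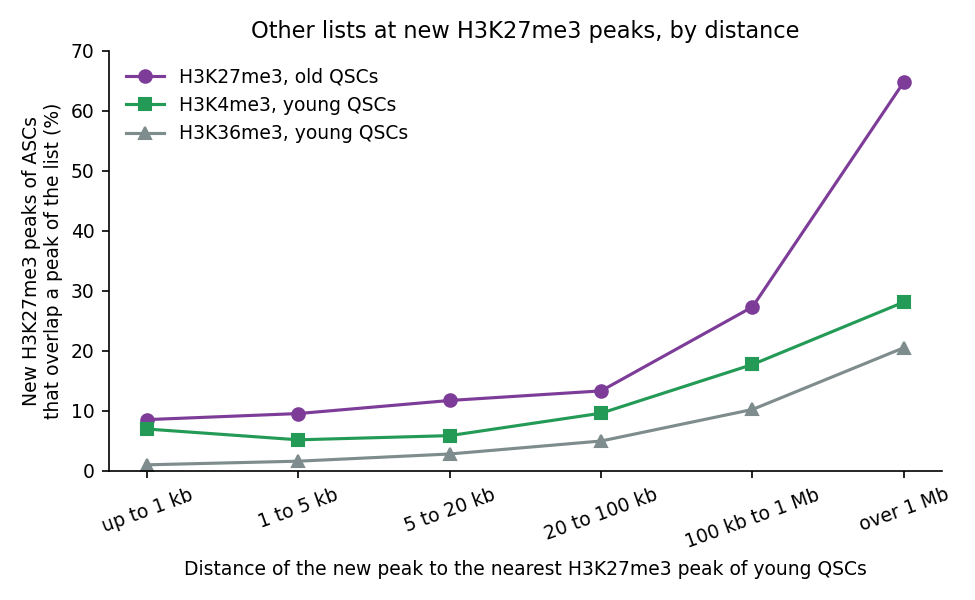
Percentage of new ASC H3K27me3 peaks that overlap a peak of another list, in 6 classes of distance to the nearest H3K27me3 peak of young QSCs. Overlap with H3K27me3 of old QSCs stands at 8.51% up to 1 kb and 64.8% over 1 Mb, and overlap with H3K4me3 and H3K36me3 of young QSCs at 28.1% and 20.5% in the most remote class.

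Strong new peaks far from QSC H3K27me3, the 5 of highest score beyond 5 kb, all had the saturated score of 3100 and are therefore tied, and no other new peak at that distance reached it. The widest was chr4:47217818-47229595, 11778 bp wide and 193 kb from the nearest QSC peak, with H3K4me3 over 26.6% of it in QSCs and 12.3% in ASCs and no H3K27me3 in old QSCs. The peak chr15:78631867-78634555, of 2689 bp, carried H3K4me3 over 87.2% of its length in QSCs and 57.6% in ASCs and had no H3K27me3 in old QSCs either. At chr13:92900772-92903006, of 2235 bp, H3K4me3 covered 55.6% and 57.1%, and H3K27me3 of old QSCs 60.8%. The peak chr7:151594757-151598534, of 3778 bp, had no H3K4me3 in young QSCs or ASCs, and H3K27me3 of old QSCs covered 63.7% of it. The remaining one, on chromosome 18, was 3462 bp wide and lay entirely within H3K4me3 peaks of both young cell states. None of the 5 overlapped H3K36me3. Of the other 4 among the 5 widest new peaks, chr1:95071141-95080425 is described above with its H3K4me3. The remaining ones were chr3:107237847-107247503 with 9657 bp, 11.5 kb from a QSC peak, chr7:138200415-138209975 with 9561 bp, at 0.754 kb, and chr4:154154557-154163319 with 8763 bp, at 10.7 kb, and none of these 3 carried H3K4me3 or H3K36me3 in either young state.

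The 2992 QSC peaks without an ASC peak were weak and narrow. Their scores had a median of 68.3 and their widths one of 932 bp, against 132 and 1426 bp for the 8666 that were also called in ASCs. Scores of at least 300 were reached by 69 of them (2.31%, 1.83% to 2.91%), compared with 27.3% (26.3% to 28.2%). In the lowest 10% of QSC scores 47.0% (44.1% to 49.9%) of the peaks had a counterpart, in the highest 10% it was 98.5% (97.6% to 99.0%). Within 5 kb of an ASC peak lay 1649 of them (55.1%, 53.3% to 56.9%). H3K4me3 was called at 6.45% (5.62% to 7.39%) of them in QSCs, against 35.0% (34.0% to 36%) of the kept peaks, and among peaks of up to 1 kb at 4.32% (3.47% to 5.37%) against 19% (17.5% to 20.7%). H3K27me3 was found in old QSCs at 5.61% (4.85% to 6.5%) of them, at 40.9% (39.8% to 41.9%) of the kept peaks and at 31.8% (31.0% to 32.7%) of all QSC peaks. Among peaks of up to 1 kb it was found at 4.1% (3.27% to 5.12%) of them and 22.5% (20.8% to 24.2%) of the kept ones. Most QSC peaks of either kind were thus missing from the old list, and those missing in ASCs more often. The share on the autosomes ran from 16.8% of the QSC peaks on chromosome 19 to 36.8% on chromosome 16, and was 35.8% on X.

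Of the 5 highest-scoring QSC peaks without an ASC peak, chr16:31496595-31503152 was the widest with 6558 bp and a score of 1004.3, and an ASC peak began 4.03 kb away. The peaks chr2:101955884-101959164 (3281 bp, score 1206.1) and chr17:72548762-72554192 (5431 bp, score 987) lay 1.72 kb and 5.84 kb from an ASC peak. None of these 3 carried H3K4me3 or H3K36me3 in young cells. The other pair, on chromosome 10, is given among the further observations.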

How the data were processed

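H3K27me3 ChIP-seq of young QSCs and ASCs was analysed, with the other 6 peak lists for comparison, and 3 input libraries were not analysed here on their own. Per the submitters' processing notes, reads were aligned with Bowtie to mm9. The authors deposited for each library the MACS peaks called against an input library, with start, end and the score of each peak (-10 times log10 of the p-value), not scaled between libraries. Versions, filters and read numbers are not given in the sources used here, so depth is unknown. Positions are printed counted from 1.

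Overlaps (1 bp or more), edge-to-edge distances and covered lengths were computed in pandas 2.3.3 and numpy 2.4.6 under Python 3.11.15, intervals with scipy 1.17.1 and figures with matplotlib 3.10.9. Tested on simulated data, the functions recovered all 1334 planted pairs, and bedtools 2.31.1 gave the same nearest distance for all 38307 ASC peaks. Lists, limits and named regions were chosen with earlier results of these data known. Regions were named by rank of score, width or gain in width (5 per rule). A planned comparison at transcription start sites was not run, because the gene table at hand is of another build (GRCm38). Alternatives were a score minimum of 100, equal list sizes, joined peaks, an overlap of 50% of the shorter peak, autosomes only and other distance limits.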

Additional observations from a re-analysis of the deposited data

How the results depend on the processing

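The 3 log2 ratios stayed above 0 under every alternative that gave a value. The other results are shares of a list and have no direction, and most values moved by more than their counting interval. In the order number and covered length of peaks (log2 ASC over QSC), new ASC peaks, QSC peaks without ASC peak, new peaks within 5 kb, gained bases in overlapping peaks, width ratio (log2), and new peaks on QSC H3K4me3, on QSC H3K36me3 and on old QSC H3K27me3, the main values were 1.72, 1.19, 77.4%, 25.7%, 21.6%, 14.1%, 0.13, 11.1%, 5.91% and 18.3%. With a score of at least 100 they were 1.64, 1.13, 73.7%, 18.2%, 18.2%, 14.7%, 0.17, 14.9%, 2.85% and 13.2%. With as many top-scoring ASC peaks as QSC peaks, which fixes the number, the other 9 were 0.37, 50.4%, 43.6%, 26.3%, 30.4%, 0.29, 25.4%, 7.06% and 29.4%, and the X share of ASC peaks was 0.935%. With peaks less than 1 kb apart joined, the number stayed at 1.72, and the others were 1.23, 79.3%, 27.7%, 12.5%, 25.5%, 0.36, 14.0%, 7.86% and 23.5%, with an X share in ASCs of 1.53%. With an overlap of 50% of the shorter peak, new ASC peaks were 78.6%, QSC peaks without ASC peak 27.9%, new peaks within 5 kb 22.8%, gained bases in overlapping peaks 12.9% and new peaks on QSC H3K4me3 and H3K36me3 10.5% and 5.64%. On autosomes only, the gained bases were 14.2% and the overlap with old QSC H3K27me3 17.8%. Distance limits of 1 kb and 20 kb gave 7.96% and 41.1% of new peaks, and counting new peaks within 5 kb as spreading gave 33.8% of the gained bases.

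Chosen after seeing the data, distances between centres gave 18.1% within 5 kb, leaving out the chromosome 8 block gave 1.20 for the covered length, ASC scores of at least 100 against all QSC peaks gave 62.8% new peaks, and QSC scores of at least 100 against all ASC peaks gave 11.4% without counterpart. The cause of these movements was not tested. No paired analysis was possible because each group has 1 library. Without replicates, read numbers or a gene annotation in mm9, differences between the cell states cannot be told apart from differences between the libraries.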

Other observations

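New H3K27me3 peaks gathered in the same parts of the genome as the QSC peaks. Among 2652 windows of 1 Mb, 1544 held a QSC peak and 2432 an ASC peak, and the median number of new ASC peaks was 2 in windows with no QSC peak, 5 in the 847 windows with 1 to 4 QSC peaks, 19 in the 569 windows with 5 to 19 and 42.5 in the 128 windows with 20 or more. Spearman's rho between QSC peaks and new ASC peaks over the windows was 0.74, a description over windows that all come from the same 2 libraries. The other lists were not counted in these windows, so whether this is particular to H3K27me3 was not tested. Windows with ASC peaks and no QSC peak numbered 903 and held 7.85% of the ASC peaks, and 15 windows had QSC peaks and no ASC peak. Windows chosen after their values were seen show the extremes. The window with the most new peaks, chr8:12000001-13000000, had 32 QSC and 182 ASC peaks, of which 157 were new. Among windows without a QSC peak, chrX:35000001-36000000 had 36 ASC peaks and chr19:14000001-15000000 had 35.

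The highest-scoring QSC H3K27me3 peaks without an ASC peak were a pair on chromosome 10, chr10:66687351-66690121 (score 2051.3) and chr10:66700388-66703202 (score 1928.3). In QSCs, H3K4me3 peaks covered 94.5% and 81.7% of them and H3K36me3 peaks 100% and 89.9%, so all 3 marks were called there. In ASCs, H3K36me3 covered 100% and 84.5% and neither of the other marks was called. Old QSCs had no H3K4me3 and no H3K27me3 there. The nearest ASC H3K27me3 peaks were 89.5 kb and 76.4 kb away.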
